A study of Mus musculus with 8 samples.

Results

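Knockdown of Rbbp4 alone was compared with control knockdown in mouse late morulae, using the 4 libraries that carry these labels out of 8 in the series. In the Rbbp4 knockdown group (2 libraries), zygotes received siRNA, a small interfering RNA that degrades its target, directed at Rbbp4. In the control group (2 libraries) they received a non-specific siRNA, so the control embryos were injected too. The other 4 libraries came from zygotes given siRNA against both Rbbp4 and Rbbp7 (double knockdown, 2 libraries) or against Rbbp7 alone (2 libraries). They are used here to measure Rbbp4 siRNA on top of Rbbp7 siRNA and to estimate the spread between libraries in the shared fit. All embryos were sampled 78 h after fertilization, and polyadenylated RNA of whole embryos was sequenced. The sources used here do not state the mouse strain, the number of embryos behind a library, or whether libraries of a group were separate pools of embryos. The p-values therefore measure the spread between libraries, which may be technical.

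RBBP4 is a WD40-repeat protein that binds histones H3 and H4. It is a shared subunit of several chromatin machines: the NuRD and SIN3 histone deacetylase complexes, the polycomb repressive complex PRC2, the histone chaperone CAF-1, the remodeller NURF, and the MuvB core, which in complex with pocket proteins or MYB-type factors represses or activates cell cycle genes. RBBP7 is its close relative and occupies the same position in many of these complexes. The series title names cell proliferation and deposition of the histone variant H3.3 as its subject, and the comparison described here asks what is seen when RBBP4 alone is depleted.

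The values are normalized abundances per gene, and changes are differences of log2(abundance + 1), so they understate changes where values are low. The ± beside a log2 change is limma's standard error, and each adjusted p is from limma with Benjamini-Hochberg adjustment over 12565 tested genes. Totals of the 8 libraries lay between 11334107 and 12011829. Control replicate 1 stood apart: 3937 genes were listed at 0 in it, against 2644 to 3237 in the other 7 libraries, and its mean correlation with the others across genes was the lowest, 0.938. Mitochondrial genes supplied 4.48% and 4.70% of the abundance in the Rbbp4 knockdown, against 6.21% and 4.29% in the control, and 5.53% in double knockdown replicate 2. Most list medians are given with and without control replicate 1. Most single genes are given with all libraries only. Pou5f1, Nanog and Cdx2, which mark the embryo's early lineages, were at 1771 or more in all 4 libraries. Summed markers of cumulus cells were 12476 and 13328 in the knockdown libraries against 12393 and 13551 in the control libraries. Nearly all of that sum was Gja1, a gap junction gene that embryos also express. Markers of oviduct epithelium summed to 146 and 166 in the knockdown against 128 and 144 in the control. Blood markers summed to 226 and 294 in the knockdown against 403 and 224 in the control, where control replicate 1 is again the higher. Sperm-list genes summed to 1157 and 1200 in the knockdown against 1820 and 1472 in the control; nearly all of this was Odf2, a centriole and sperm tail protein, and the protamine-stage genes Prm3 and Tnp2 were at 0 in all 4 libraries.

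Rbbp4 itself (ENSMUSG00000057236, chromosome 4, 129307100 to 129335370, minus strand, GRCm38) was at 402 and 343 in the knockdown libraries, against 5300 and 4710 in the control libraries. That is 7.44% of the control mean, a log2 change of −3.75 ± 0.15 (adjusted p = 1.04e-05). Given together with Rbbp7 siRNA, the Rbbp4 siRNA left the gene at 348 and 433 in the double knockdown against 4370 and 4467 in the Rbbp7 knockdown, a log2 change of −3.50 ± 0.15 (adjusted p = 1.90e-05). The close relative Rbbp7 was at 6696 and 6295 in the Rbbp4 knockdown and at 8399 and 7205 in the control. Its libraries did not overlap, yet the log2 change of −0.26 ± 0.14 did not pass (adjusted p = 0.858), and no transcript gain of the paralogue was seen.

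Beyond Rbbp4 the test called very few genes. In total 3 of 12565 genes passed (0.0239%), 1 higher (0.00796%) and 2 lower (0.0159%), Rbbp4 included. The second gene that was called lower was Ndufa9, a subunit of mitochondrial respiratory complex I (chromosome 6, 126821721 to 126849136). It was listed at 0 in both knockdown libraries and at 276 and 468 in the control libraries (adjusted p = 1.30e-04). In the other 4 libraries Ndufa9 was at 476 and 323 in the double knockdown, which also received Rbbp4 siRNA, against 459 and 172 in the Rbbp7 knockdown. Its absence was therefore seen in 2 of the 4 libraries that received Rbbp4 siRNA. An exact 0 means that no reads were assigned to the gene, for a reason that was not tested, and no fold is given. The gene called higher was Gm12613, a predicted gene of chromosome 11 (60610136 to 60610517), at 64.0 and 83.0 in the knockdown and at 0 and 0 in the control (adjusted p = 0.0405). It was also present at 151 and 130 in the double knockdown, against 0 and 0 in the Rbbp7 knockdown (adjusted p = 0.00916). That second call ended with only the groups compared in the fit (adjusted p = 0.0746), without Rbbp4 knockdown replicate 2 (0.0518) and without double knockdown replicate 1 (0.0624). All of its transcript sequence is shared with 11 other genes, so which locus was counted is uncertain. Its call against the control held under 8 of 18 alternatives. Leaving out control replicate 1 ended it (adjusted p = 0.103), as did leaving out either library of the Rbbp4 knockdown (0.424 and 0.297) or of the double knockdown (0.195 and 0.179). It also ended with only the groups compared (0.300), with a minimum mean of 50 (0.364), with a pseudocount of 0.5 (0.0797), with quantile scaling (0.0732) and with a replicate block (0.0718). The number of called genes was 35 (27 higher, 8 lower) with control replicate 2 left out, and 6 with Rbbp4 knockdown replicate 2 left out.

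Before adjustment, 378 genes were higher (3.01%) and 358 lower (2.85%) at p below 0.05, 736 in all (5.86%). If no gene differed, 628 would be expected at that threshold. Non-overlapping libraries, meaning both knockdown libraries above or both below both control libraries, were found for 2263 genes higher (18.0%) and 2187 genes lower (17.4%). With groups of 2 there are 6 orders of the libraries, so an exact permutation test of a single gene cannot go below p = 0.333. Each direction of non-overlap is 1 of these 6 orders, so 1 in 6 genes would show it if the groups did not differ. The shares found are close to that, and non-overlap is used here as a description. The log2 change was above 0 for 50.9% of genes and below 0 for 49.1%, with a median of 0.00494. The deposited values were normalized with DESeq2, which centres ratios between libraries near 1, so this even split is set by the scaling and is no result.

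**Figure D1:**
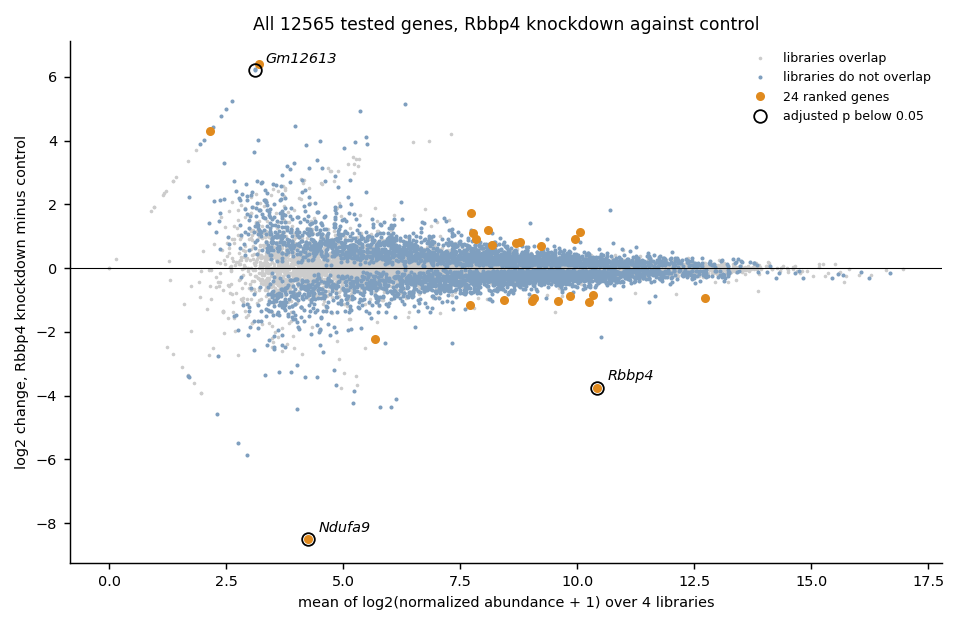
Each point is a tested gene: its mean log2(normalized abundance + 1) over the 4 libraries on the x axis and its log2 change, Rbbp4 knockdown minus control, on the y axis. Blue genes have non-overlapping libraries, orange genes are the 24 ranked genes, and open circles mark the 3 genes that passed, Rbbp4, Ndufa9 and Gm12613.

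The genes at the head of the ranking towards lower levels had tight replicates and changes near −1. They were ranked by limma p among genes with non-overlapping libraries and a full gene name, so the values in this comparison are a description of how they were chosen. After Rbbp4 and Ndufa9 came Max, the obligate partner of MYC and of the MAD and MGA repressors (chromosome 12, 76937269 to 76962201). Max was at 665 and 691 in the knockdown against 1256 and 1249 in the control, a log2 change of −0.88 ± 0.12 (adjusted p = 0.121). Each group's libraries were within a few percent of each other, and the knockdown mean was 54.1% of the control. Mfn2, a GTPase that fuses mitochondrial outer membranes (chromosome 4, 147873599 to 147904704), was at 377 and 351 in the knockdown against 701 and 798 in the control (−1.04 ± 0.15, adjusted p = 0.162). Pafah1b2, a catalytic subunit of platelet-activating factor acetylhydrolase, was at 859 and 824 in the knockdown against 1825 and 1669 in the control (−1.05 ± 0.16, adjusted p = 0.178). Mob1a, a coactivator of the LATS kinases of the Hippo pathway, was at 959 and 974 in the knockdown against 1901 and 1570 in the control (−0.84 ± 0.13, adjusted p = 0.188). Pank3, which catalyses the first step of coenzyme A synthesis (chromosome 11, 35769484 to 35791285), was at 5276 and 4495 in the knockdown against 10759 and 8125 in the control (−0.94 ± 0.15, adjusted p = 0.227). In all 5 of these genes the control libraries lay well above the knockdown libraries, and none passed the adjustment. Over 18 alternatives the log2 change lay between −0.97 and −0.70 for Mob1a and between −1.14 and −0.74 for Pank3. In both genes control replicate 1, the library that stood apart, was the higher of the 2 controls.

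Further down the same ranking, Sac3d1, which encodes a SAC3-domain protein, was at 136 and 141 in the knockdown against 313 and 310 in the control (−1.16 ± 0.19, adjusted p = 0.232). Slc39a2, a zinc transporter, was at 16.2 and 31.2 in the knockdown against 115 and 105 in the control (−2.23 ± 0.38, adjusted p = 0.253). The zinc finger gene Zfp367 was at 366 and 412 in the knockdown against 822 and 684 in the control (−0.95 ± 0.17, adjusted p = 0.310). Pigs, a subunit of the transamidase that attaches GPI anchors, had 274 and 218 in the knockdown against 471 and 506 in the control (−0.99 ± 0.18). Plet1, a surface marker of trophoblast progenitors, had 575 and 499 in the knockdown against 1127 and 1064 in the control (−1.03 ± 0.20, adjusted p = 0.446). The 12 genes ranked lower thus ran from a mitochondrial fusion protein and a coenzyme A enzyme to Hippo and MYC-network components.

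**Figure D2:**
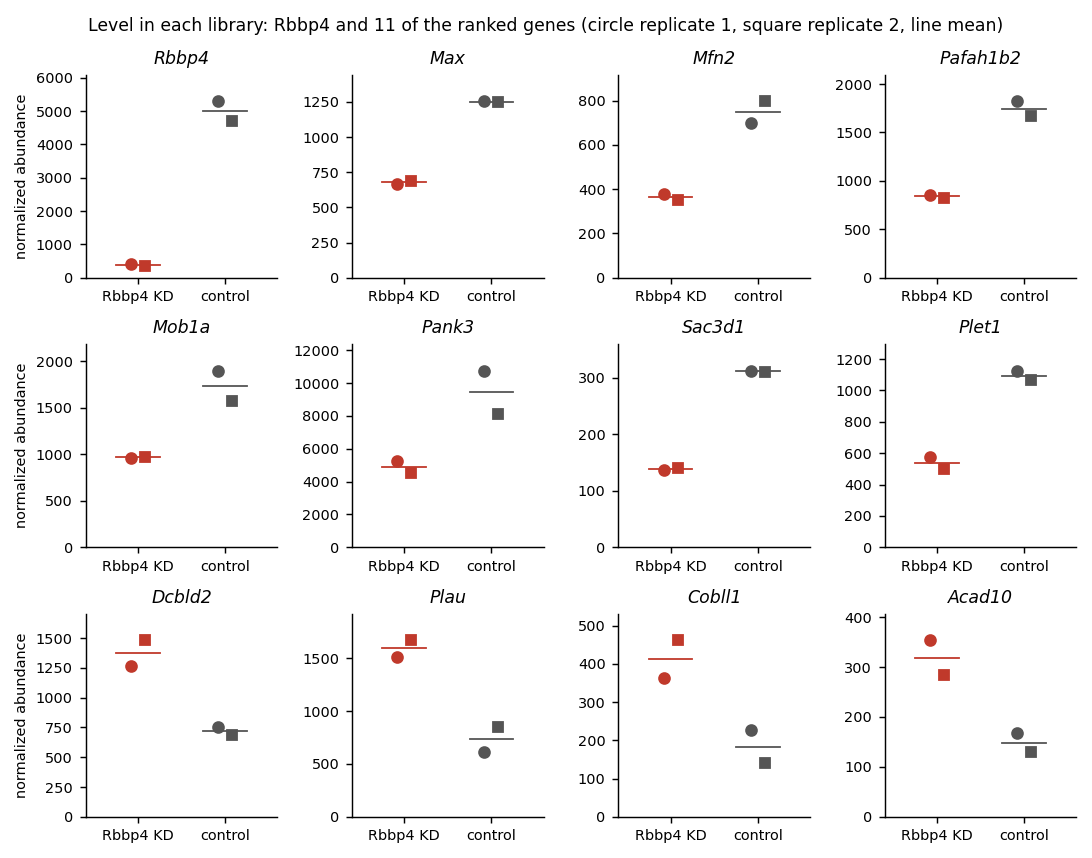
Normalized abundance (y axis, from 0) of Rbbp4, 7 genes ranked lower and 4 ranked higher, with Rbbp4 knockdown on the left and control on the right of each panel; circles are replicate 1, squares replicate 2, lines the group mean. By the rule of choice, in every panel the 2 knockdown libraries lie on 1 side of the 2 control libraries.

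Among genes ranked higher, the leading gene was Dcbld2, a neuropilin-like membrane protein (chromosome 16, 58408443 to 58469727), at 1264 and 1484 in the knockdown against 755 and 689 in the control. That is 1.90-fold, a log2 change of 0.92 ± 0.15 (adjusted p = 0.211). Plau, the secreted protease urokinase (chromosome 14, 20836660 to 20843385), was at 1513 and 1671 in the knockdown against 614 and 851 in the control, 2.17-fold (1.14 ± 0.23, adjusted p = 0.474). Cobll1, a relative of the actin nucleator cordon-bleu, had 364 and 462 in the knockdown against 227 and 140 in the control (1.20 ± 0.25, adjusted p = 0.474). Pcnt, the centrosome scaffold pericentrin, had 504 and 293 in the knockdown against 90.6 and 148 in the control (1.72 ± 0.31, adjusted p = 0.318). Acad10, of the acyl-CoA dehydrogenase family, had 354 and 284 in the knockdown against 167 and 130 in the control (1.10 ± 0.24, adjusted p = 0.568). These were changes of less than 4-fold in genes detected in every library.

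The rest of the 12 ranked higher were Fubp1, a single-stranded DNA binding regulator (0.83 ± 0.19), the ciliary transport gene Wdr35 (0.70 ± 0.16), the fucosyltransferase Sec1 (0.74 ± 0.17), the receptor-associated gene Neto2 (0.92 ± 0.22), Ddit4l, which restrains mTOR signalling (0.78 ± 0.18), Cd247 and Rprd2, with adjusted p of 0.474 to 0.628. Cd247 was at 34.8 and 9.66 in the knockdown and at 0 and 0 in the control, but 55.9% of its transcript sequence is shared with other annotated genes, chiefly the overlapping Pou2f1, so its level is uncertain. Rprd2, which binds RNA polymerase II, was at 150 and 45.5 in the knockdown and at 0 in the control, the Rbbp7 knockdown and the double knockdown. Sec1 shares 24.1% of its sequence with the neighbouring Ntn5 and Fut2, and Acad10 shares 17.3% with other genes, among them its relative Acad12. The leading gene Dcbld2 shares 18.7%, chiefly with the overlapping St3gal6.

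The double and Rbbp7 knockdowns measure the addition of Rbbp4 siRNA again, and the 2 comparisons share no library. They are not fully separate from the ranking, because all 8 libraries entered the filter and the fit's estimate of spread. That comparison called 45 genes (0.358%), 30 higher (0.239%) and 15 lower (0.119%). The count is unsteady: it was 1, Rbbp4 itself, when only these 4 libraries were fitted, 5 without an intensity trend, and between 5 and 43 when each library in turn was left out. With replicate 1 or 2 of a group missing it was 7 or 6 for the Rbbp4 knockdown, 12 or 5 for the Rbbp7 knockdown and 15 or 28 for the double knockdown. Of the 12 genes ranked higher in the Rbbp4 knockdown, 10 were also higher in the double than in the Rbbp7 knockdown, as were 48.2% of all tested genes. Of the 11 ranked lower beside Rbbp4, the siRNA target, 10 were lower there too, against 51.7% of all genes. The extension to 100 genes in each direction gave 76 of 100 higher and, Rbbp4 set aside, 82 of 99 lower. Non-overlapping libraries in the same direction were found for 61.0% and, Rbbp4 included, 66.0% of these, beside 23.1% and 23.2% of all genes. The median log2 change of the 100 ranked higher was 0.908 in the Rbbp4 knockdown comparison and 0.370 in the other libraries, and that of the 100 ranked lower was −0.775 and −0.373. When the filter, the fit and the ranking used the 4 Rbbp4 knockdown and control libraries alone, without Rbbp4, 70 of 100 kept their direction among genes ranked higher and 75 of 100 among genes ranked lower. Those directions were found for 47.7% and 52.1% of the 12465 genes of that fit. Non-overlap in the same direction was 51.0% and 55.0%, beside 22.7% and 23.5% of those genes. When the ranking was made without control replicate 1, 74 of 100 and 63 of 100 kept their direction. An siRNA can act on transcripts other than its target, and both comparisons used siRNA labelled in the same way, so shared effects of RBBP4 loss and of the siRNA itself cannot be told apart.

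Gene by gene, the change on adding Rbbp4 siRNA to the Rbbp7 knockdown ranged from the same sign and a like or larger size to none or the opposite sign. Plau was at 2456 and 3660 in the double knockdown against 495 and 639 in the Rbbp7 knockdown (2.41 ± 0.23, adjusted p = 0.00732), and Dcbld2 at 1722 and 1543 in the double knockdown against 420 and 493 in the Rbbp7 knockdown (1.84 ± 0.15, adjusted p = 0.00291). Both therefore rose on addition of the siRNA, though the calls ended with only the groups compared in the fit (adjusted p = 0.0900 for Plau and 0.0746 for Dcbld2) and without the intensity trend (0.0679 and 0.0557). Pank3, at 4732 and 4058 in the double knockdown against 10004 and 9654 in the Rbbp7 knockdown, fell by 1.16 on the log2 scale (adjusted p = 0.0185). Mfn2 fell too, to 312 and 302 in the double knockdown against 666 and 605 in the Rbbp7 knockdown (−1.05 ± 0.15, adjusted p = 0.0280), and Cobll1 rose, to 450 and 458 in the double knockdown against 162 and 157 in the Rbbp7 knockdown (1.50 ± 0.25, adjusted p = 0.0475). The calls of Pank3, Mfn2 and Cobll1 each ended when any of the 6 knockdown libraries was left out, with adjusted p of 0.0518 to 0.139, 0.0855 to 0.183 and 0.122 to 0.208. They also ended with only the groups compared (0.101, 0.188 and 0.134) and without the intensity trend (0.115, 0.0780 and 0.120). With the replicate block Mfn2 (0.0522) and Cobll1 (0.0727) did not pass, nor did Cobll1 with no filter on low values (0.0576).

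Several others had the same sign without passing. Sac3d1 (−1.06 ± 0.19), Mob1a (−0.72 ± 0.13), Plet1 (−1.08 ± 0.20) and Acad10 (1.31 ± 0.24) shared an adjusted p of 0.0588, and Max had −0.56 ± 0.12 (adjusted p = 0.0846). Neto2 had 1.14 ± 0.22 (adjusted p = 0.0674), Ddit4l 0.85 ± 0.18 (0.0865) and Pafah1b2 −0.70 ± 0.16 (0.0944). In contrast Wdr35 (0.032 ± 0.16), Zfp367 (−0.098 ± 0.17) and Rprd2, at 0 in all 4 of these libraries, showed nothing there, and Pcnt had the opposite sign (−0.53 ± 0.31, adjusted p = 0.472). In the Rbbp7 knockdown against the control, Zfp367, Pcnt and Wdr35 had log2 changes of −0.94, 2.07 and 0.64, but those values use the same control libraries. Set directly against the Rbbp7 knockdown, the Rbbp4 knockdown had more Dcbld2, at 1264 and 1484 in the Rbbp4 knockdown against 420 and 493 in the Rbbp7 knockdown (1.59 log2, adjusted p = 0.00414), a call that ended without Rbbp4 knockdown replicate 2 (adjusted p = 0.0848) and without the intensity trend (0.116). The change on adding Rbbp4 siRNA to the Rbbp7 knockdown differed from the change against the control for 1 of 12565 genes (0.00796%), Ndufa9 (adjusted p = 0.00344). That count was 21 without control replicate 2, and 1 to 6 without any other single library.

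**Figure D3:**
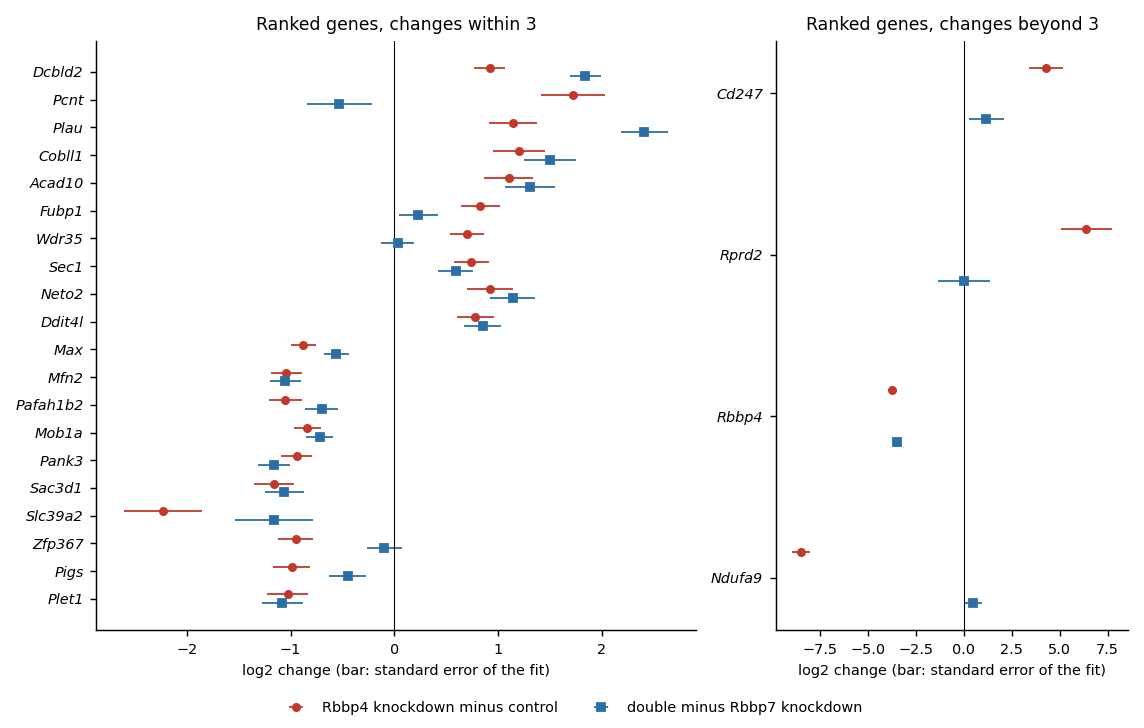
Log2 change (x axis) of the 24 ranked genes in the Rbbp4 knockdown against the control (red circles, the comparison that chose them) and in the double against the Rbbp7 knockdown (blue squares, no library shared); bars are standard errors of the fit. Mfn2, Pank3, Plau, Dcbld2 and Cobll1 lie on the same side of 0 in both, while Pcnt and Ndufa9 do not.

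The genes called in the double against the Rbbp7 knockdown were also read in the Rbbp4 knockdown; their calls come from the same fit of 8 libraries. Of the 30 genes that rose with Rbbp4 siRNA on top of Rbbp7 siRNA, 28 had a positive change in the Rbbp4 knockdown alone, 22 with non-overlapping libraries, 12 with an unadjusted p below 0.05 and 1, Gm12613, past the adjustment. Among all genes 50.9% were positive, 18.0% non-overlapping higher and 3.01% higher with an unadjusted p below 0.05. The median change of the 30 was 0.442 in the Rbbp4 knockdown. The fatty acid elongase gene Elovl3 was at 18.6 and 41.6 in the Rbbp4 knockdown against 3.80 and 6.01 in the control (2.32 ± 0.57, adjusted p = 0.660). In the other libraries Elovl3 rose to 196 and 159 in the double knockdown, against 8.72 and 6.25 in the Rbbp7 knockdown (4.40 ± 0.57, adjusted p = 0.0177), a call that ended when any of the 6 knockdown libraries was left out (adjusted p = 0.0513 to 0.137). Of the 14 genes other than Rbbp4 that fell, 13 had a negative change in the Rbbp4 knockdown, 9 with non-overlapping libraries, 6 with an unadjusted p below 0.05 and 0 past the adjustment in limma. The shares of all genes were 49.1%, 17.4% and 2.85%, and the median change of the 14 in the Rbbp4 knockdown was −0.286. Nanog, a pluripotency factor, was at 6545 and 6051 in the Rbbp4 knockdown against 6698 and 6322 in the control (−0.048 ± 0.11, adjusted p = 0.981). It was at 4192 and 4692 in the double knockdown against 9093 and 10156 in the Rbbp7 knockdown (−1.12 ± 0.11, adjusted p = 0.00916). That call ended with only the groups compared (adjusted p = 0.107), without the intensity trend (0.0773) and without Rbbp7 knockdown replicate 2 (0.108). The difference between these changes did not pass (adjusted p = 0.369).

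Some genes were listed at 0 throughout 1 group and at 10 or more in both libraries of the other. In the Rbbp4 knockdown these were 4 genes, Ndufa9, Pfkfb4, P2ry2 and the predicted gene Gm10697, against 9 in the control, Casp14, Rprd2, Arhgap33, Rapgef5, Sox6, Bcl9l and the predicted genes Gm6741, Gm12613 and Gm8226. Between the double and the Rbbp7 knockdown there were 10 such genes at 0 in the double knockdown and 8 at 0 in the Rbbp7 knockdown. Pfkfb4, a regulator of glycolysis, was at 0 and 0 in the Rbbp4 knockdown against 56.1 and 58.3 in the control (adjusted p = 0.784), and at 0 and 157 in the double knockdown against 0 and 0 in the Rbbp7 knockdown. P2ry2, a nucleotide receptor, had 0 and 0 in the knockdown against 17.0 and 31.1 in the control (adjusted p = 0.663), and Arhgap33 had 41.4 and 32.2 in the knockdown against 0 and 0 in the control (adjusted p = 0.628). The 4 predicted genes in these sets share all of their sequence with other genes.

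Lists of genes of the complexes that contain RBBP4 had small median changes, beside 0.00494 for all genes. Rbbp4, the siRNA target, belongs to the NuRD, PRC2, SIN3, MuvB, histone chaperone, and NURF and ISWI lists. It is counted among their lower genes and among those with non-overlapping libraries. In each of the 11 chromatin lists, 0 members other than Rbbp4 passed in limma, and unadjusted p was below 0.05 for 0 to 2 higher and 1 to 2 lower members of a list, Rbbp4 included. Of all tested genes, 3.01% were higher and 2.85% lower at that p. Of the 14 tested NuRD genes, 5 were higher and 9 lower, 1 and 6 of them with non-overlapping libraries (18.0% and 17.4% of all genes), with a median log2 change of −0.0902. Of the same 14, 10 were lower in the double than in the Rbbp7 knockdown, Rbbp4 among them, with a median of −0.199. Mbd2, which links NuRD to methylated DNA, was at 82.4 and 117 in the knockdown against 140 and 185 in the control (−0.71 ± 0.26, adjusted p = 0.836), and Mta2 at 2337 and 2534 in the knockdown against 3179 and 2860 in the control (−0.31 ± 0.14). Hdac1 and Hdac2, the deacetylases of NuRD and SIN3, had −0.13 ± 0.11 and 0.19 ± 0.13, although 35.5% of the Hdac1 sequence is shared with other genes. PRC2 had a median of 0.0203 over 11 genes (6 higher, 5 lower), which turned to −0.0803 (2 higher, 9 lower) without control replicate 1. Its median in the double against the Rbbp7 knockdown was −0.155, with 8 of 11 lower. Its accessory factor Mtf2 was at 4619 and 4452 in the knockdown against 5295 and 5448 in the control (−0.24 ± 0.11, adjusted p = 0.850), and its methyltransferase Ezh2 had −0.11 ± 0.12. SIN3 genes had a median of −0.117 over 18 (7 higher, 11 lower), with opposite signs for related subunits: Ing1 was at 606 and 589 in the knockdown against 318 and 456 in the control (0.65 ± 0.18, adjusted p = 0.723), and Ing2 at 316 and 252 in the knockdown against 484 and 336 in the control (−0.51 ± 0.23, adjusted p = 0.850). The MuvB and pocket protein list had a median of −0.0580 over 19 genes (8 higher, 11 lower), and −3.95e-04 without control replicate 1. In it Lin37, a MuvB subunit, was at 252 and 198 in the knockdown against 298 and 370 in the control (−0.57 ± 0.22, adjusted p = 0.836). Another member, Tfdp1, was higher, at 280 and 212 in the knockdown against 48.2 and 154 in the control. Its log2 change was 1.48 ± 0.47 (adjusted p = 0.753), and 0.65 to 2.31 over 18 alternatives.

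Histone chaperones and H3.3 genes, the subject named in the series title, had a median of −0.0790 over 28 genes (−0.0358 without control replicate 1). Of these, 9 were higher and 19 lower, with unadjusted p below 0.05 in 2 higher and 2 lower (3.01% and 2.85% of all genes). The siRNA target Rbbp4 is 1 of the 19 lower genes and 1 of the 2 lower at that p. The H3.3 gene H3f3b was at 7184 and 8728 in the knockdown against 6557 and 6874 in the control (0.24 ± 0.13, adjusted p = 0.877). In the other libraries H3f3b rose to 12632 and 13024 in the double knockdown, against 5671 and 6894 in the Rbbp7 knockdown (1.04 ± 0.13, adjusted p = 0.0177), a call that ended when any of the 6 knockdown libraries was left out (adjusted p = 0.0513 to 0.109). The other H3.3 gene, H3f3a, had 6073 and 6321 in the knockdown against 7484 and 5843 in the control (−0.094 ± 0.14), with overlapping libraries and a sign that turned without control replicate 1 (0.085). Daxx, a chaperone of H3.3, was at 630 and 501 in the knockdown against 380 and 407 in the control (0.51 ± 0.18, adjusted p = 0.814). Ubn1, a subunit of the HIRA chaperone complex, had 532 and 532 in the knockdown against 694 and 737 in the control (−0.43 ± 0.15, adjusted p = 0.834), while Hira itself had 0.082 ± 0.16 and Chaf1a of CAF-1 −0.11 ± 0.13. Nap1l1, which shuttles H2A and H2B, was at 3046 and 3711 in the knockdown against 2437 and 2748 in the control (0.38 ± 0.13, adjusted p = 0.814). Sequence shared with other genes is 49.7% for Chaf1a, chiefly the overlapping Ubxn6, 42% for Hira, 27.1% for H3f3a and 21.2% for Nap1l1.

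The DNA methylation list leaned lower, with 11 of 14 genes negative and a median of −0.185 (−0.177 without control replicate 1). Of all 14, 6 were lower with non-overlapping libraries, beside 17.4% of all tested genes. In the double against the Rbbp7 knockdown the median was −0.0436, with 8 of 14 lower. Dppa3, which protects imprinted methylation in the early embryo, was at 9290 and 8409 in the knockdown against 10548 and 10353 in the control (−0.24 ± 0.10, adjusted p = 0.839), and Zfp57, which maintains imprints, at 222 and 218 in the knockdown against 300 and 357 in the control (−0.57 ± 0.26). Against that lean, the demethylating enzyme Tet1 was at 1910 and 1826 in the knockdown and 1400 and 1272 in the control (0.48 ± 0.13, adjusted p = 0.714). Of 22 genes for H3K9 methylation and Trim28, 17 were negative, with a median of −0.117 that was −0.0284 without control replicate 1. Trim28, the corepressor recruited by KRAB zinc fingers, was at 7978 and 7708 in the knockdown against 10829 and 10007 in the control (−0.41 ± 0.11, adjusted p = 0.680). In the double knockdown Trim28 was at 7157 and 6402, against 11056 and 10537 in the Rbbp7 knockdown. That was a log2 change of −0.67 ± 0.11 (adjusted p = 0.0453), a call that held under 6 of 18 alternatives. The list's median there was −0.142, with 13 of 22 lower. Linker histone and H2A variant genes had a median of 0.239 over 9 genes, which became −0.0759 without control replicate 1. The medians of NURF and ISWI (−0.0948 over 12), PRC1 (−0.0414 over 24) and acetyltransferases with SWI/SNF (−0.0862 over 26) were within 0.1 of 0. Without control replicate 1 they were 0.00592, −0.0397 and −0.0294.

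**Figure D4:**
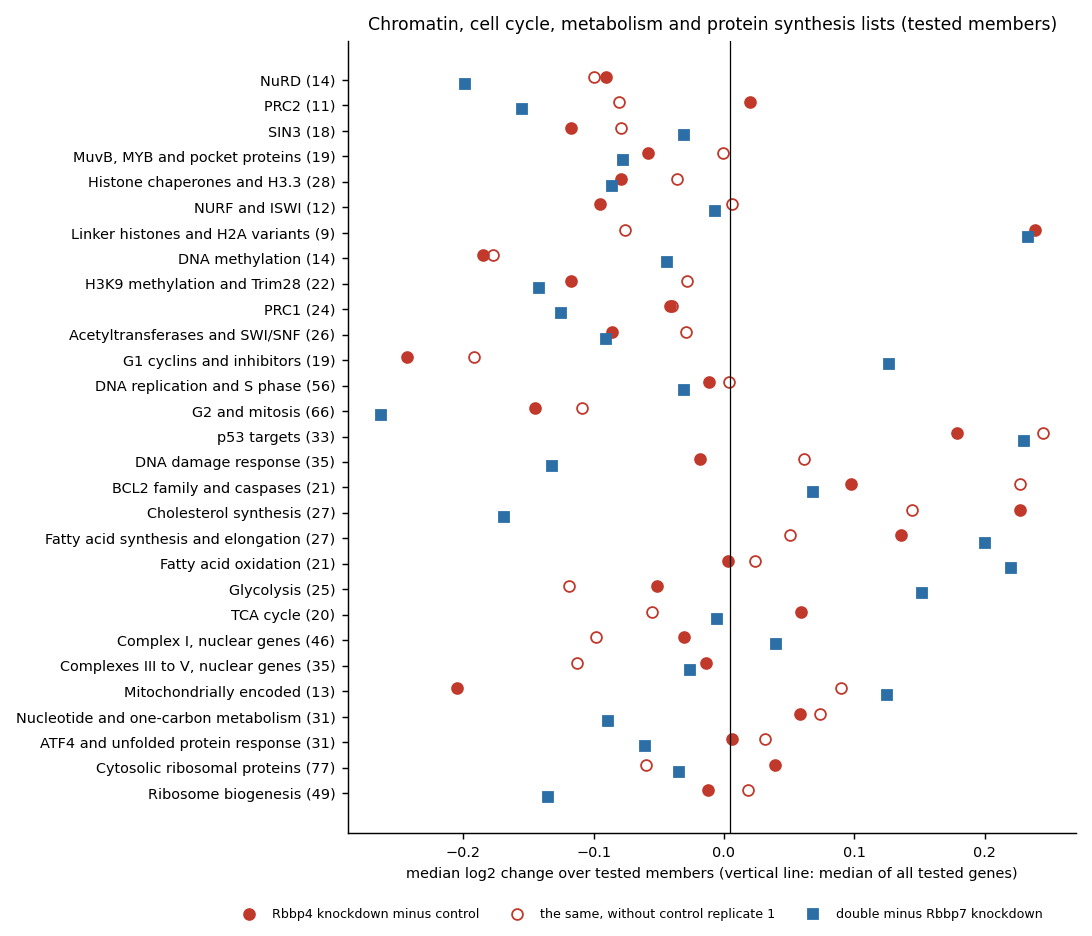
Median log2 change (x axis) of the tested members of each chromatin, cell cycle, metabolism and protein synthesis list (number of members in parentheses): Rbbp4 knockdown minus control with all libraries (filled circles) and without control replicate 1 (open circles), and double minus Rbbp7 knockdown (squares). G2 and mitosis lies left of the all-gene line and p53 targets right of it in all 3, while the mitochondrially encoded, linker histone, PRC2 and TCA cycle lists are among those that change side without control replicate 1.

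Among the cell cycle lists, G2 and mitosis genes leaned lower. Of 66 tested genes, 52 were lower and 14 higher in the knockdown, with a median log2 change of −0.145, and 30 were lower and 3 higher with non-overlapping libraries. Background shares were 17.4% of genes non-overlapping lower and 18.0% higher. Unadjusted p below 0.05 was reached by 9 lower and 0 higher genes, beside 2.85% and 3.01% of all tested genes. After adjustment 0 passed in limma. The list member Cdca3 was at 939 and 1024 in the knockdown against 1528 and 1369 in the control (−0.56 ± 0.13, adjusted p = 0.604). Mki67, the proliferation marker Ki-67, had 1445 and 1212 in the knockdown against 2091 and 1765 in the control (−0.54 ± 0.16, adjusted p = 0.723). The cohesin protector Sgo1 was at 342 and 419 in the knockdown against 592 and 590 in the control (−0.64 ± 0.19, adjusted p = 0.723). Ube2c, a ubiquitin-conjugating enzyme of the anaphase-promoting complex, had 1875 and 2191 in the knockdown against 3031 and 2518 in the control (−0.45 ± 0.14, adjusted p = 0.751), and the mitotic kinase Cdk1 had 1940 and 2237 in the knockdown against 3212 and 2361 in the control (−0.40 ± 0.16, adjusted p = 0.836). These 5 genes were named for having non-overlapping libraries and the smallest p in the list, so their non-overlap follows from the choice. Over 18 alternatives the log2 change of Cdk1 lay between −0.62 and −0.18, and control replicate 1 was its higher control. Without control replicate 1 the median was −0.109 and 43 genes were lower, where 49.6% of all genes were above 0 and 50.4% below. Without Rbbp4 knockdown replicate 2 the median was −0.0843. In the double against the Rbbp7 knockdown 56 of the 66 were lower, with a median of −0.263, and 46 were lower in both comparisons, as were 3673 of all 12565 genes. In bulk RNA, fewer cells in mitosis, or fewer cells of a type, cannot be told apart from less RNA per cell.

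Promoters of such genes often hold the cell cycle homology region (CHR, TTTGAA or TTCGAA), a site bound by the MuvB complexes to which RBBP4 belongs, together with CCAAT boxes bound by NF-Y. RefSeq promoters (250 bases before to 50 after the start, GRCm38.p6) were found for 54 of the 66 genes, and those of 3 genes described above are shown with both motifs, on either strand, in capitals, read 5′ to 3′ along the gene's strand. Cdca3 lies at chr6:124829926-124830225 (plus strand), Cdk1 at chr10:69352863-69353162 (minus strand) and Ube2c at chr2:164769679-164769978 (plus strand).
Cdca3: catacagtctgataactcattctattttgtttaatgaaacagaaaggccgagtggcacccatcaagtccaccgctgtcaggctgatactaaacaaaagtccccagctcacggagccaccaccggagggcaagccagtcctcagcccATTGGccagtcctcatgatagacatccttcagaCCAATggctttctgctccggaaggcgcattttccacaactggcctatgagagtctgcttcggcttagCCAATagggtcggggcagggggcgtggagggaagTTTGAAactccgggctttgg
Cdk1: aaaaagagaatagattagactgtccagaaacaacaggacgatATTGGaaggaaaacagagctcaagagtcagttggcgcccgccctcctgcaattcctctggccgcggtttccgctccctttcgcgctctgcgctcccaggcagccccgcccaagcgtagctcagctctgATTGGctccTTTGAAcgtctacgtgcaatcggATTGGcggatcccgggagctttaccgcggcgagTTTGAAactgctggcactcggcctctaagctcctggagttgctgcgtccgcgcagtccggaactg
Ube2c: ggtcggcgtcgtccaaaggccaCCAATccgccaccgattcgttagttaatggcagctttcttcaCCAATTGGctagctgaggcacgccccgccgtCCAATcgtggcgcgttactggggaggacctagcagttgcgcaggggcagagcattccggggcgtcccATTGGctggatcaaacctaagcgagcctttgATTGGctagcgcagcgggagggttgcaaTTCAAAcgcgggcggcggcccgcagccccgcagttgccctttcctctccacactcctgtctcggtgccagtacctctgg
In the Cdca3 window a TTTGAA begins 30 bases after the start, close to a CCAAT. In Cdk1 it occurs 71 and 15 bases before the start. In Ube2c the motif is read on the opposite strand, as TTCAAA, 29 bases before the start. A CHR was present in 41 of the 54 promoters (75.9%), against 16.2% of 9527 tested genes with a promoter and 19.2% of all 32851 promoters. CCAAT, on either strand, was present in 40 of 54 (74.1%), against 43.4% of tested genes and 37.4% of all promoters. The median log2 change was −0.147 with a CHR and −0.114 without, and −0.155 with a CCAAT box and −0.0581 without. A match describes letters in a window and was not tested as a binding site.

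Other phases of the cycle differed. The S phase list had 26 higher and 30 lower of 56 and a median of −0.0117 (0.00408 without control replicate 1). In it Cdc7, a kinase that fires origins, was at 491 and 550 in the knockdown against 395 and 368 in the control (0.45 ± 0.15, adjusted p = 0.814), and the licensing factor Cdc6 at 1602 and 1641 in the knockdown against 2110 and 1888 in the control (−0.30 ± 0.11, adjusted p = 0.836). G1 cyclins and inhibitors were lower in 15 of 19, with a median of −0.243 (−0.192 without control replicate 1). Of all 19, 7 were lower with non-overlapping libraries, beside 17.4% of all tested genes. Beside 3.01% and 2.85% of all tested genes, unadjusted p below 0.05 was reached by 0 higher and 1 lower. That gene, Cdkn1a, the CDK inhibitor p21 and a p53 target (chromosome 17, 29090976 to 29100727), was at 2539 and 2252 in the knockdown against 4284 and 4415 in the control, 55.1% of the control mean (−0.86 ± 0.21, adjusted p = 0.628). Cyclin E1 (Ccne1) had 2089 and 2438 in the knockdown against 2944 and 2502 in the control (−0.27 ± 0.13), and Cdk2 840 and 745 in the knockdown against 1021 and 917 in the control (−0.29 ± 0.14). The G1 lean was not seen in the other libraries, where the median of the list was 0.127 in the double against the Rbbp7 knockdown, and Cdkn1a was at 4561 and 2884 in the double knockdown against 3781 and 2916 in the Rbbp7 knockdown (0.13 ± 0.21).

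Targets of p53 leaned higher although Cdkn1a did not. Of 33 tested, 26 were higher and 7 lower, with a median of 0.179, and 15 higher and 4 lower had non-overlapping libraries. Background shares of non-overlap were 18.0% of all tested genes higher and 17.4% lower. Unadjusted p below 0.05 was reached by 2 higher and 3 lower (3.01% and 2.85% of all genes), and 0 passed in limma. Ddit4l, an inhibitor of mTOR signalling, was at 568 and 519 in the knockdown against 283 and 352 in the control, and Ddit4, its relative, at 3219 and 4228 in the knockdown against 2571 and 2967 in the control (0.42 ± 0.18, adjusted p = 0.850). Members in the other direction included Plk3, a stress kinase, at 225 and 176 in the knockdown against 405 and 373 in the control (−0.96 ± 0.22, adjusted p = 0.596), and Tigar, which lowers glycolytic flux, at 1598 and 1883 in the knockdown against 2264 and 2449 in the control (−0.44 ± 0.13, adjusted p = 0.723). The list's median was 0.245 without control replicate 1 and 0.0921 without control replicate 2. In the double against the Rbbp7 knockdown 26 of 33 were higher, median 0.230. In both comparisons 23 were higher, as were 3561 of all 12565 genes. Apoptosis regulators had a median of 0.0977 over 21 genes, 15 of them higher and 0 with an unadjusted p below 0.05. Without control replicate 1 the median was 0.227, with 17 of 21 higher. They included the p53-inducible activators Bbc3, at 544 and 634 in the knockdown against 377 and 423 in the control (0.56 ± 0.29, adjusted p = 0.853), and Pmaip1, at 793 and 751 in the knockdown against 669 and 596 in the control (0.29 ± 0.14, adjusted p = 0.853). The DNA damage list had 17 higher and 18 lower and a median of −0.0184, which became 0.0617 (21 higher, 14 lower) without control replicate 1.

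**Figure D5:**
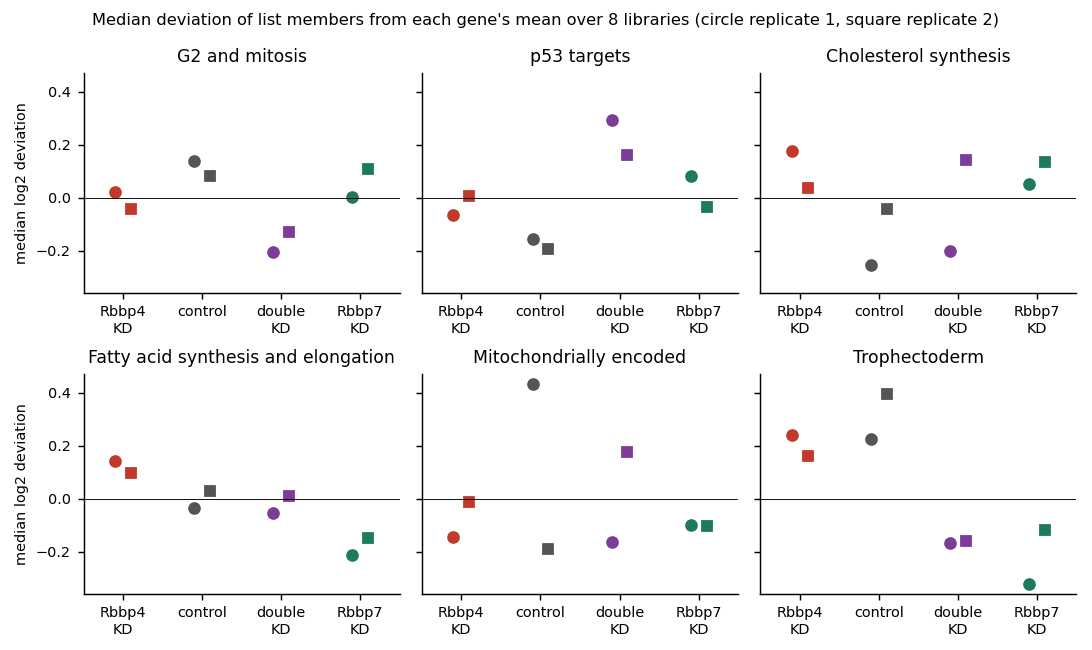
For 6 lists, the median over members of each gene's log2 deviation from its mean over the 8 libraries (y axis), for each library; circles are replicate 1, squares replicate 2. Both Rbbp4 knockdown libraries lie below both control libraries for G2 and mitosis and above them for p53 targets, cholesterol synthesis and fatty acid synthesis, while for mitochondrially encoded genes control replicate 1 (0.433) and double knockdown replicate 2 (0.178) lie above 0 and the other 6 libraries below it.

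In metabolism, cholesterol synthesis genes leaned higher. Of 27 tested genes, 24 were higher and 3 lower, with a median of 0.227, and 15 higher and 0 lower had non-overlapping libraries. Background shares of non-overlap were 18.0% of all tested genes higher and 17.4% lower. Unadjusted p below 0.05 was reached by 5 higher and 0 lower (3.01% and 2.85% of all genes), and 0 passed in limma. The epoxidase Sqle was at 3740 and 3205 in the knockdown against 2414 and 2516 in the control (0.49 ± 0.12, adjusted p = 0.628). Insig1, which holds the sterol sensor in the endoplasmic reticulum, had 4605 and 5350 in the knockdown against 3171 and 3853 in the control (0.51 ± 0.16, adjusted p = 0.760), and Fdft1, squalene synthase, 1838 and 1637 in the knockdown against 981 and 1357 in the control (0.59 ± 0.16, adjusted p = 0.723). Fdft1 shares 26.5% of its sequence with other genes, chiefly the overlapping Ctsb. Hsd17b7 was at 374 and 354 in the knockdown against 278 and 230 in the control (0.52 ± 0.20, adjusted p = 0.836), and the sterol carrier Stard4 at 1168 and 1351 in the knockdown against 958 and 986 in the control (0.37 ± 0.13, adjusted p = 0.814). The median was 0.144 without control replicate 1, with 21 of 27 higher, 0.388 without control replicate 2, and 0.109 and 0.312 without Rbbp4 knockdown replicate 1 and replicate 2. The lean did not recur in the other libraries, where 19 of the 27 were lower in the double than in the Rbbp7 knockdown, with a median of −0.169. A 9-letter sterol regulatory element, TCACCCCAC on either strand, was found in 1 of 20 promoters of this list (5%, Hmgcs1) and in 0.661% of tested genes' promoters, so the list was not split by it.

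Fatty acid synthesis and elongation genes were higher in 23 of 27, with a median of 0.136 (0.0509 without control replicate 1). Of all 27, 6 were higher and 2 lower with non-overlapping libraries, beside 18.0% and 17.4% of all tested genes. Unadjusted p was below 0.05 for 3 higher and 0 lower (3.01% and 2.85% of all genes). Beside Elovl3, the list included the acetyl-CoA carboxylase Acacb, at 1206 and 1052 in the knockdown against 737 and 942 in the control (0.43 ± 0.16, adjusted p = 0.836). The desaturase Fads1 was at 597 and 543 in the knockdown against 446 and 346 in the control (0.54 ± 0.22), and the acyl-CoA synthetase Acsl1 at 118 and 122 in the knockdown against 144 and 197 in the control (−0.49 ± 0.28). In the other libraries the list had a median of 0.200, and 14 members were higher in both comparisons, as were 3561 of all 12565 genes. Fatty acid oxidation (median 0.00319 over 21), the citric acid cycle (0.0594 over 20) and glycolysis (−0.0511 over 25) had medians within 0.1 of 0. Without control replicate 1 the citric acid cycle turned to −0.0555 (9 higher, 11 lower, against 14 and 6 with it), glycolysis was at −0.119 and fatty acid oxidation at 0.0239. In the double against the Rbbp7 knockdown 18 of the 25 glycolysis genes were higher (median 0.152). The medians there were 0.220 for fatty acid oxidation and −0.00532 for the citric acid cycle. Within glycolysis, Gapdh was at 3195 and 3996 in the knockdown against 4458 and 5301 in the control (−0.44 ± 0.16, adjusted p = 0.834), although 25.1% of its sequence is shared with pseudogene copies, and Aldoa at 5278 and 5004 in the knockdown against 5685 and 6307 in the control (−0.22 ± 0.12, adjusted p = 0.857). Citrate synthase (Cs) had 3209 and 3008 in the knockdown against 3527 and 4371 in the control (−0.34 ± 0.13, adjusted p = 0.836).

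The absence of Ndufa9 stood alone within complex I. Of 46 nuclear complex I genes, 21 were higher and 25 lower, with a median of −0.0304. Non-overlapping libraries were found for 3 higher and 9 lower, beside 18.0% and 17.4% of all tested genes. Unadjusted p below 0.05 was reached by Ndufa9 and by the assembly factor Ndufaf3, which was at 83.7 and 108 in the knockdown against 167 and 200 in the control (−0.93 ± 0.27, adjusted p = 0.723). Ndufb11 was at 616 and 624 in the knockdown against 714 and 777 in the control (−0.26 ± 0.13), and Ndufb6 at 790 and 766 in the knockdown against 533 and 730 in the control (0.32 ± 0.17). Over 18 alternatives the log2 change of Ndufb6 lay between 0.090 and 0.55. Ndufb6 shares 31.6% of its sequence with the overlapping Smim27. Nuclear genes of complexes III to V had a median of −0.0138 over 35, 15 higher and 20 lower. All 13 protein genes of the mitochondrial genome were lower in the knockdown, with a median of −0.205. However, 1 of 13 was lower with non-overlapping libraries, beside 17.4% of all tested genes. Of the 13, 0 had an unadjusted p below 0.05 and 0 passed in limma. Their summed abundance was 512111 and 550761 in the knockdown against 745776 and 502548 in the control, so the direction was set by control replicate 1, without which 11 of 13 were higher and the median was 0.0897. All 13 were higher in the double than in the Rbbp7 knockdown, with a median of 0.125. The sums there were 496281 and 626623 in the double knockdown against 506434 and 524881 in the Rbbp7 knockdown. Control replicate 1 had the same leverage on both nuclear sets in the opposite sense, since without it 34 of 46 complex I genes and 27 of 35 genes of complexes III to V were lower, with medians of −0.0982 and −0.113.

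Protein synthesis and its supply showed small and mixed values in the Rbbp4 knockdown against the control. Cytosolic ribosomal protein genes were higher in 48 of 77 with a median of 0.0388, which was −0.0599 without control replicate 1. Ribosome biogenesis had 20 higher and 29 lower of 49, with a median of −0.0126 (0.0184 without control replicate 1). In the double against the Rbbp7 knockdown 41 of these 49 were lower (median −0.135). There 53 of the 77 ribosomal protein genes were lower (median −0.0348), beside 51.7% of all genes. Nucleotide and one-carbon metabolism had 19 higher and 12 lower of 31, median 0.0587, and 0 members passed in limma. Unadjusted p was below 0.05 for 0 higher and 2 lower of this list (3.01% and 2.85% of all genes). In it Paics, a purine synthesis enzyme, was at 4844 and 4977 in the knockdown against 4201 and 4164 in the control (0.23 ± 0.10, adjusted p = 0.850). Impdh1, of guanine nucleotide synthesis, had 4101 and 4111 in the knockdown against 3167 and 3425 in the control (0.32 ± 0.15, adjusted p = 0.851). The mitochondrial folate enzyme Aldh1l2 was low throughout, at 12.4 and 14.9 in the knockdown against 66.9 and 39.9 in the control (−1.86 ± 0.53, adjusted p = 0.723). Of the 31 genes of this list, 24 were lower in the double than in the Rbbp7 knockdown, with a median of −0.0892. Stress genes driven by ATF4 and the unfolded protein response had a median of 0.00605 over 31 (0.0316 without control replicate 1), with 0 at an unadjusted p below 0.05.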

How the data were processed

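Polyadenylated RNA from 8 libraries of mouse late morulae was analysed, 2 per group, of which the Rbbp4 knockdown and control libraries are described in depth. Per the labels' protocols, RNA was captured on oligo(dT) beads and amplified. The submitters' processing notes name Trimmomatic, HISAT2, featureCounts, DESeq2 and GRCm38; versions, settings and strand use were not given in the sources used here. Each deposited value is a signal, an abundance per Ensembl gene that the authors normalized with DESeq2, not raw counts. Within 0.05, 31.6% to 63.8% of each library's low values were whole multiples of its step, so whole reads were not recovered, no count model was run, and depth in reads is unknown; no counting interval is given. Column totals, 11334107 to 12011829, follow that normalization.

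Of 19058 genes, 18942 matched a symbol; the 12565 with a mean of at least 10 over 8 libraries were tested and 6493 left out. Values were analysed as log2(value + 1) with limma 3.58.1 in R 4.3.3, 1 mean per group over all 8 libraries, an intensity trend, 4 residual and 5.18 prior degrees of freedom, two-sided tests and Benjamini-Hochberg adjustment at 0.05. The script was tested on simulated data. The 41 gene lists, the ranking rule (12 genes per direction with the smallest p, a gene name and non-overlapping libraries), up to 5 members named per list by the same order, and 12 genes named whatever their values were chosen with earlier results of these data known. Sequence sharing was counted over GENCODE transcripts of GRCm38, as words of each gene also found in other genes. Promoters are from RefSeq. Alternatives were the pseudocount (0.5, 5), the filter (none, mean of 50), TMM and quantile scaling, the fit (groups compared only, no trend, group weights, replicate block) and leaving out each library.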

Additional observations from a re-analysis of the deposited data

Results flagged for a closer look

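Ndufa9, a subunit of respiratory complex I, was flagged because the effect of Rbbp4 siRNA differed with the presence of Rbbp7 siRNA by the interaction term of the limma fit (adjusted p = 0.00344, Benjamini-Hochberg). It was listed at 0 and 0 in the Rbbp4 knockdown against 276 and 468 in the control, and at 476 and 323 in the double knockdown against 459 and 172 in the Rbbp7 knockdown. Over 17 alternatives the adjusted p of the interaction lay between 0.00162 and 0.0658, and it missed the threshold without the intensity trend. Of its transcript sequence, 2.53% is shared with other genes. Why the gene is listed at 0 in these 2 libraries was not tested.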

How the results depend on the processing

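Rbbp4 and Ndufa9 passed under all 18 alternatives, and the count of called genes, 3, was 2 or 3 under the 10 that left out no replicate, 1 of which fitted only the 4 libraries compared. Leaving out a library gave 2 to 35, the high value without control replicate 2 (27 higher, 8 lower) and 6 without Rbbp4 knockdown replicate 2. For the double against the Rbbp7 knockdown the count, 45, was 78 with a mean of at least 50, 1 with only the groups compared and 5 without the trend, and 5 to 43 when a library was left out. Genes with non-overlapping libraries fell in number to 729 higher and 552 lower with a gap of at least 0.25, and without control replicate 1, chosen after seeing the data, were 4477 and 4422. Ranking on the 4 compared libraries alone was likewise chosen after seeing the data. The median of G2 and mitosis was −0.179 to −0.0843 with a library left out, that of p53 targets 0.0921 to 0.245 and that of cholesterol synthesis 0.109 to 0.388. Signs turned within the range given by leaving out each library for H3f3a (−0.27 to 0.085), Pou5f1 (−0.044 to 0.25), Hira (−0.074 to 0.24), Cdx2 (−0.43 to 0.26) and Nanog (−0.10 to 0.0085), and, in the double against the Rbbp7 knockdown, for Wdr35 (−0.088 to 0.15), Ndufa9 (−0.22 to 1.18) and Zfp367 (−0.22 to 0.021); the cause was not tested. Replicate numbers did not pair the libraries (correlations of deviations −0.0221 to 0.0510); with a replicate block 2 genes passed here, Gm12613 no longer among them, and 30 in the double against the Rbbp7 knockdown. Where leaving out a library left 1 in a group, that library was assumed to vary like the other groups. The depth in reads is unknown, so it is not known what depth limits.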

Other observations

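Embryonic lineage genes were described by the same counts. Trophectoderm genes, of the outer lineage, were lower in 20 of 29 with a median log2 change of −0.132 (−0.163 without control replicate 1). Of all 29, 12 were lower with non-overlapping libraries, beside 17.4% of all tested genes. Unadjusted p below 0.05 was reached by 1 higher and 4 lower (3.01% and 2.85% of all genes), and 0 passed in limma with Benjamini-Hochberg adjustment. Vtcn1, an immune checkpoint ligand, was at 86.8 and 102 in the Rbbp4 knockdown against 217 and 178 in the control (−1.06 ± 0.31, adjusted p = 0.723), and Atp1b1, which encodes the beta subunit of the sodium pump, at 852 and 762 in the knockdown against 1000 and 1073 in the control (−0.36 ± 0.14, adjusted p = 0.836). The keratin Krt19 was higher, at 54.6 and 96.6 in the knockdown against 8.27 and 26.1 in the control (2.22 ± 0.57, adjusted p = 0.663). The lineage factor Cdx2 was at 2182 and 2071 in the knockdown against 1771 and 2869 in the control, so its libraries overlapped. In the double against the Rbbp7 knockdown the list's median was 0.0519.

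Naive pluripotency genes had a median of 0.0215 over 23 (−0.00661 without control replicate 1) and primitive endoderm genes 0.164 over 18 (0.0302 without control replicate 1). Lamb1, a laminin chain, was at 2600 and 1964 in the knockdown against 1217 and 1430 in the control (0.78 ± 0.22, adjusted p = 0.723), and Cubn, an endocytic receptor, at 1004 and 898 in the knockdown against 641 and 676 in the control (0.53 ± 0.15, adjusted p = 0.723). In the double against the Rbbp7 knockdown Cubn was called higher, by 1.21 on the log2 scale, a call that held under 10 of 18 alternatives. Germline genes that DNA methylation normally silences were higher in 22 of 34, median 0.0952 (0.241 with 23 higher without control replicate 1). In both this comparison and the double against the Rbbp7 knockdown 18 were higher, as were 3561 of all 12565 genes. The meiotic genes Tex15, at 135 and 76.1 in the knockdown against 51.2 and 32.3 in the control (1.30 ± 0.37, adjusted p = 0.723), and Sycp1, at 217 and 270 in the knockdown against 144 and 125 in the control (0.84 ± 0.27, adjusted p = 0.771), led that list. Genes of the 2-cell stage were lower in 12 of 15 with a median of −0.702 (−1.12 without control replicate 1), but they are low and vary: Usp17lc was at 22.8 and 12.0 in the knockdown against 22.9 and 189 in the control. In the double against the Rbbp7 knockdown that median was 0.626. Imprinted genes had a median of 0.00196 over 25 (−0.0164 without control replicate 1), in which Igf2 was at 110 and 46.8 in the knockdown against 204 and 137 in the control (−1.21 ± 0.43, adjusted p = 0.814); 62.1% of its sequence is shared with annotated neighbours. Compaction and junction genes (−0.00611 over 39, −0.0570 without control replicate 1) and maternal transcripts (−0.131 over 16, 0.123 without control replicate 1) were near the median of all genes or changed sign without that library.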
